A study of Rattus norvegicus with 6 samples.

Results

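The 6 genes described here are known from neutrophils (S100a8 and S100a9) and from the granules and surface of mast cells (Tpsb2, Cpa3, Cma1 and Fcer1a), and were measured in developing rat Achilles tendon. Which cells the S100a8 and S100a9 transcripts came from was not measured. They were chosen by symbol from the 14217 genes that some probe set of the array names alone, and each of the 6 had a single probe set. S100a9 and Tpsb2 were picked for their fall between the ages in these same arrays, so their values are given as a description with no test. Transcript levels were measured on an Affymetrix rat expression array in tendons dissected on post-natal day 1 (3 arrays) and post-natal day 7 (3 arrays). The RNA on each array was pooled from 2 or more animals, so the spread behind each p-value is that between pools. The sources used here name no strain, sex, genotype or treatment for either age.

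Neutrophils are short-lived blood leukocytes that kill microbes with the contents of their granules. S100a8 and S100a9 encode calcium-binding proteins that pair as calprotectin, which fills the neutrophil cytosol and is released as an alarm signal. Monocytes and stressed epidermis can make both as well. Mast cells are long-lived tissue residents that mature locally and store proteases with histamine in granules packed on proteoglycan. Connective tissue mast cells hold tryptases (Tpsb2 and its neighbour Tpsab1), chymases (Cma1) and carboxypeptidase A3 (Cpa3). Fcer1a encodes the subunit of the high-affinity IgE receptor that binds the antibody.

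S100a9 was 5.93-fold lower on day 7 by mean log2 value, and S100a8 was 1.83-fold lower but short of the threshold. The tryptase Tpsb2 was 1.71-fold lower, while the levels of the carboxypeptidase Cpa3 and the chymase Cma1 overlapped between the ages. Fcer1a lay near the negative control on all 6 arrays. In bulk tissue, fewer cells of a type and less RNA per cell cannot be told apart.

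The 6 arrays had median intensities of 20.5 to 21.1. Probe sets for a bacterial trp transcript, which rat RNA lacks, read between 3.74 and 4.76, and a gene below 9.51 on every array (2 times the highest trp value) is called near the negative control here. Tissue identity was checked with 9 measured tendon markers, of which none was near the negative control and whose summed intensity ran from 26702.6 to 44787.4 on day 1 and from 48110.5 to 62811.8 on day 7. Markers of other tissues moved with age on the same arrays. The summed intensity of 9 skeletal muscle genes was 42993.1 to 53241.8 on day 1 and 25234.2 to 38349.8 on day 7. Of the 9, 4 were called lower, against 3.15% of all genes. The summed intensity of 10 adipocyte genes was 1553 to 1836 on day 1 and 2945 to 6085 on day 7. Of the 10, 7 were called higher, against 1.93% of all genes. The part of these markers in the results on granule genes was not tested.

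**Figure D1:**
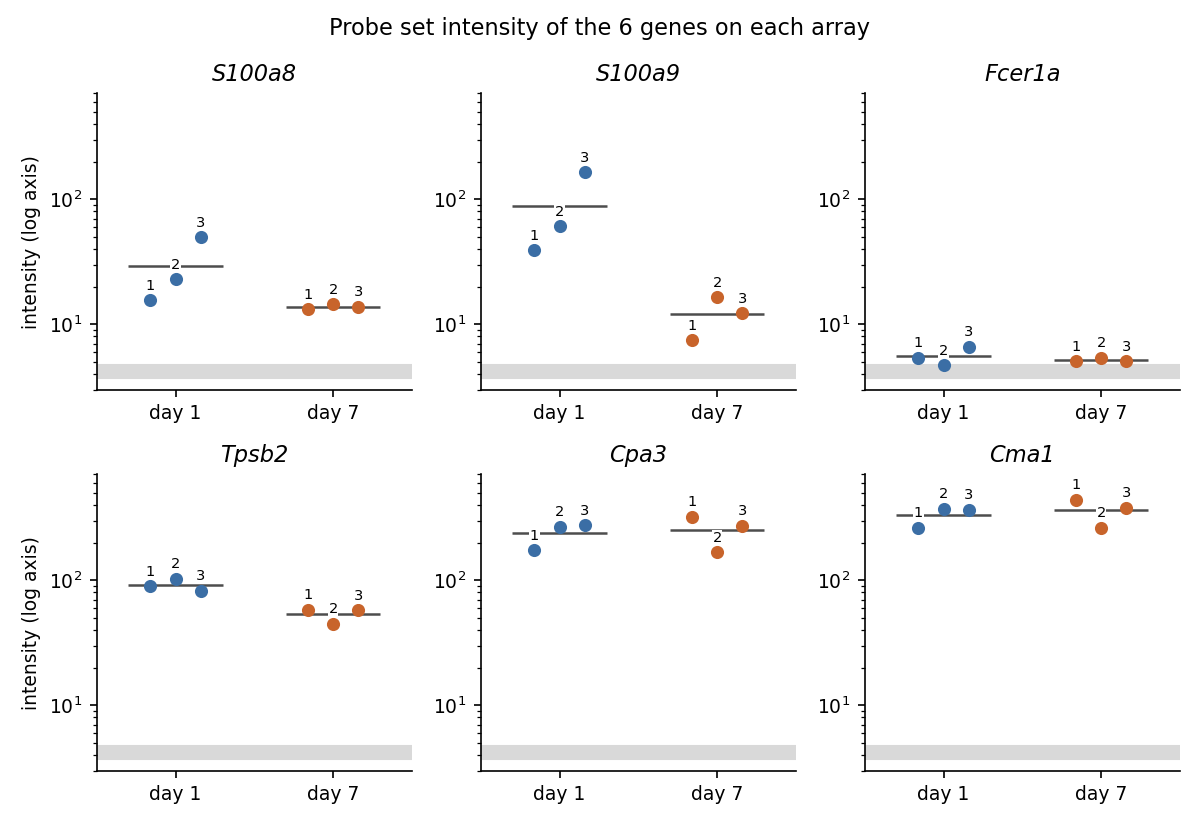
Probe set intensity of the 6 genes on each array (log axis), with day 1 in blue and day 7 in orange. Numbers are replicates, horizontal lines are group means and the grey band spans the trp negative control (3.74 to 4.76). S100a9, S100a8 and Tpsb2 lay lower on all day 7 arrays, Cpa3 and Cma1 overlapped between the ages, and Fcer1a stayed close to the band.

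The intensity of S100a9 was 38.9, 60.8 and 164.4 on day 1 replicates 1, 2 and 3. On day 7 it was 7.48, 16.4 and 12.3. Every day 7 array lay below every day 1 array, and the day 1 arrays spanned 4.22-fold among themselves, with replicate 3 far above the others. The day 1 mean was 88.1 ± 67.0 and the day 7 mean 12.1 ± 4.48 (SD, n = 3 each), a log2 change of -2.57 on the log2(intensity + 1) scale. Without day 1 replicate 3 the change was -1.99, and with 16 added in place of 1 before the logarithm it was -1.72. On day 7 replicate 1 the value lay under 9.51 and on the others it was at most 16.4, and the size of the fall depends on that constant.

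S100a8 encodes the partner of S100a9, and in the rat assembly GRCr8 no annotated gene lies between them on chromosome 2. Its intensity was 15.6, 22.9 and 49.8 on day 1 and 13.2, 14.5 and 13.8 on day 7 (replicates 1, 2 and 3). All day 7 arrays again lay below all day 1 arrays, but day 1 replicate 1 exceeded the nearest day 7 array only narrowly. The log2 change was -0.88 (SE 0.35; 95% interval -1.69 to -0.06) and did not pass (limma adjusted p = 0.197; 0.0379 before adjustment). It was -0.43 without day 1 replicate 3, and the adjusted p lay between 0.128 and 0.361 over the 14 processing alternatives that could be run. Over all 14217 genes, 5.08% had an adjusted p under 0.05 (3.15% lower and 1.93% higher on day 7), and 19.1% had all day 7 arrays below all day 1 arrays. S100a8 was not among the calls, and its separation of the ages is one that many genes share. For S100a9 the same shares are background only, because its fall chose it.

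Within each age, the 2 brightest red cell transcripts stood in the same order over the arrays as S100a9 and S100a8, which was noticed after the values were seen. On day 7 that order rests on dim values, 13.2 to 14.5 for S100a8 and 7.48 to 16.4 for S100a9. Hbb, a globin gene, read 7763, 10315 and 13726 on day 1 and 6706, 12300 and 11829 on day 7 (replicates 1, 2 and 3). Alas2, the first enzyme of haem synthesis in red cell precursors, read 202.6, 287.4 and 737.0 on day 1 and 190.9, 758.7 and 604.8 on day 7. Of the 9 measured erythroid genes, 3 (Hbb, Alas2 and Klf1) kept the order of S100a9 within both ages and the other 6 did not. Over all other genes, 243 of 14216 (1.71%) kept it.

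Between the ages the red cell transcripts overlapped. Of 9 measured erythroid genes none was called in either direction (limma; also none at an unadjusted p under 0.05), their median log2 change was 0.24 against -0.01 over all genes, and 1 of the 9 was near the negative control. Their summed intensity ran from 8260 to 14981 on day 1 and from 7042 to 13869 on day 7.

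For S100a8, which was not picked for a fall, the level was also set against Hbb and Alas2 on the same array. These references were taken up after their array order was seen in the same data. The p-values below therefore belong to no planned comparison, and the differences are given as a description. On day 7 S100a8 was nearly flat (13.2, 14.5 and 13.8), so the differences among those arrays mostly follow Hbb and Alas2. Log2 S100a8 minus log2 Hbb was -8.87, -8.76 and -8.08 on day 1 and -8.88, -9.63 and -9.64 on day 7 (exact permutation test, two-sided, p = 0.10, the smallest that 3 against 3 allows). Against Alas2 the values overlapped, at -3.61, -3.59 and -3.86 on day 1 and -3.75, -5.61 and -5.35 on day 7 (exact permutation test, two-sided, p = 0.20).

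Epidermal transcripts were high on a different array. Of 10 measured epidermal genes none was called (limma; none at an unadjusted p under 0.05), and the median log2 change was -0.87. Their summed intensity reached 6038 on day 1 replicate 1. It was 182.3 and 182.2 on the other day 1 arrays and ran from 198.7 to 550.9 on day 7. Krt10, a keratin of the upper epidermis, read 2575 on day 1 replicate 1 and 50.4 to 95.5 on the other 5 arrays. S100a9 and S100a8 had their lowest day 1 value on that same array.

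**Figure D2:**
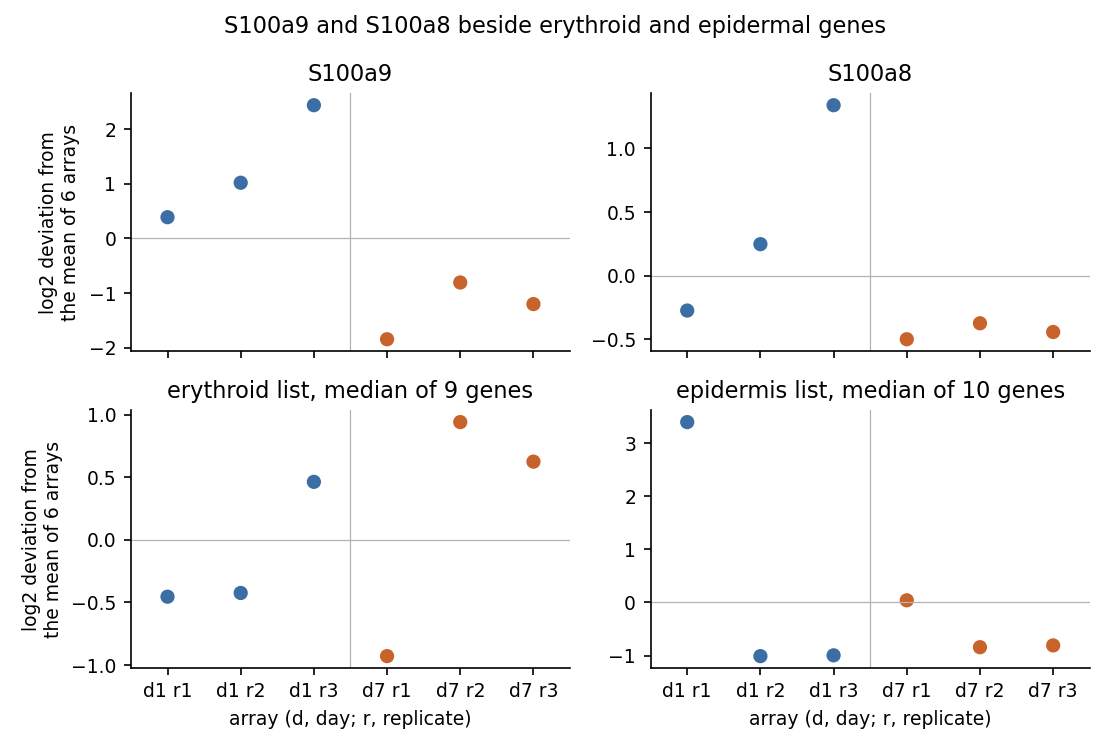
Deviation from the mean of the 6 arrays, in log2(intensity + 1), for S100a9, S100a8 and the per-array median of 9 erythroid and 10 epidermal genes, with day 1 (d1) in blue, day 7 (d7) in orange and replicates as r1 to r3. Axis ranges differ between panels. Day 7 replicates 2 and 3 were high for the erythroid genes (0.94 and 0.63) while S100a9 and S100a8 were below their means, and day 1 replicate 1 stood apart for the epidermal genes (3.40).

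Other neutrophil genes were mostly at the negative control at both ages. Of 35 listed granule and lineage genes 18 were measured, and 12 of these stayed below 9.51 on every array. Among the 12 were the cathelicidin Camp, the collagenase Mmp8, the alpha-defensins Np4, RatNP-3b and Defa5, the granulopoietic factor Cebpe, the receptor Csf3r for the neutrophil growth factor and the chemokine receptor Cxcr2. Camp, for example, read between 4.44 and 7.30 over the 6 arrays and Csf3r between 5.35 and 6.63. None of the 18 was called higher or lower, with 0 and 1 at an unadjusted p under 0.05 (limma), and their median log2 change was 0.00. Their summed intensity was 222.7 to 247.2 on day 1 and 229.3 to 251.4 on day 7. Most of it came from Lcn2 (62.4 to 99.9 over the 6 arrays), Hp (24.0 to 47.0) and Pglyrp1 (21.7 to 33.9).

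The 6 neutrophil genes that passed that level on at least 1 array gave mixed values. For Lcn2, an iron-sequestering granule protein that other cells also make, the log2 change was -0.09 (SE 0.17; limma adjusted p = 0.788). The granule protein Pglyrp1, which binds bacterial peptidoglycan, had one of 0.32 (adjusted p = 0.257) and Hp, the haemoglobin-binding haptoglobin, one of 0.41 (0.280). Il1r2, a decoy receptor for interleukin 1, had one of -0.65 (0.167), with -1.03 (0.0399) without both arrays numbered 2 and -0.29 (0.239) with 16 added before the logarithm. Itgam, the integrin chain of the complement receptor, had one of -0.31 (0.341) and the chemokine receptor Cxcr1 one of -0.07 (0.797).

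Genes that neutrophils share with other phagocytes were detected and none was called. Of 7 measured, 0 were higher and 0 lower, with 0 and 1 at an unadjusted p under 0.05 (limma). They had a median log2 change of 0.11 and a summed intensity of 393.5 to 520.4 on day 1 and 419.5 to 442.6 on day 7. For the oxidase subunit Cybb the log2 change was 0.30 (SE 0.13; limma adjusted p = 0.230), for its partner Cyba -0.35 (0.200) and for the cytosolic subunit Ncf1 0.27 (0.276). The small GTPase Rac2 had a change of -0.31 (0.364), the leukocyte integrin chain Itgb2 one of 0.11 (0.683) and Alox5ap, which presents arachidonic acid for leukotriene synthesis, one of -0.39 (0.288). The log2 changes of the 25 genes of both lists ran from -0.65 to 0.41.

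Macrophage genes, which mark the other phagocytes of the tissue, numbered 13 and their median log2 change was -0.27. Of them Adgre1, an adhesion receptor of macrophages, was called higher (log2 change 1.18; limma adjusted p = 0.0190) and none lower. At an unadjusted limma p under 0.05, 1 was higher and 5 lower, and the share of all genes at that level was not counted. Leaving out day 1 replicate 1 (0.0753), leaving out day 7 replicate 1 (0.0932) and leaving out day 7 replicate 3 (0.0562) each ended the Adgre1 call. Of the 13, 10 had a negative change, among them the scavenger receptor Cd163 (-1.01; limma adjusted p = 0.0988) and the complement genes C1qb (-0.90; 0.108) and C1qc (-0.64; 0.137). Their summed intensity was 1887 to 2834 on day 1 and 1649 to 2038 on day 7. Of 9 genes common to all leukocytes, whose median was 0.04, none was called (limma; 0 higher and 1 lower at an unadjusted p under 0.05). Of 9 genes for receptors of calprotectin and their adaptors, among them Bsg, Cd36 and Cd14, the median was 0.12 and none was called (limma; also 0 at an unadjusted p under 0.05). Day 1 replicate 3, the array highest in S100a9 and S100a8, also had the lowest bacterial Bio control probe sets, spiked in at hybridisation, with a geometric mean of 599.0 against 913.3 to 1528 on the other 5 arrays. The part of these in the fall of S100a9 was not tested.

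The median log2 change of 12 other measured genes of the S100 family was 0.28. Of these 2 were called higher, as were 1.93% of all genes, and none lower (limma; 4 higher and 1 lower at an unadjusted p under 0.05). S100a6, which is found in fibroblasts, read 490.4, 573.2 and 493.9 on day 1 and 752.7, 777.8 and 830.3 on day 7 (log2 change 0.60, SE 0.11; adjusted p = 0.0343). S100b, a marker of glia and cartilage, read 77.0, 141.4 and 77.3 on day 1 and 235.0, 180.8 and 284.3 on day 7. Its log2 change was 1.27 (SE 0.26; adjusted p = 0.0443). The S100a6 call held without day 1 replicate 2 and ended without any other array, namely day 1 replicates 1 (adjusted p = 0.128) and 3 (0.0978) and day 7 replicates 1 (0.118), 2 (0.0621) and 3 (0.0904). That of S100b ended without day 1 replicates 1 (0.145) or 3 (0.124), without day 7 replicates 1 (0.155) or 3 (0.119), and with 16 added before the logarithm (0.0811).

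Turning to mast cells, the tryptase Tpsb2 read 89.5, 102.7 and 82.2 on day 1 and 57.9, 44.8 and 57.3 on day 7 (replicates 1, 2 and 3). The ages did not overlap, and the arrays of one age spanned only 1.25-fold on day 1 and 1.29-fold on day 7. The means were 91.5 ± 10.4 and 53.3 ± 7.39 (SD, n = 3 each), a log2 change of -0.77. It was -0.57 without both arrays numbered 2. This fall chose the gene and is not tested.

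Tpsab1 encodes the second rat tryptase, and GRCr8 annotates no gene between it and Tpsb2 on chromosome 10. Its probe set read 114.5, 235.4 and 193.4 on day 1 and 70.3, 76.5 and 47.8 on day 7. All day 7 arrays lay below all day 1 arrays, as for 19.1% of all genes. Tpsab1 fell by 1.43 on the log2 scale (SE 0.28; limma adjusted p = 0.0387), from a mean of 181.1 ± 61.4 to 64.9 ± 15.1 (SD, n = 3 each). The call was lost in 5 of the 6 fits without 1 array. The adjusted p was 0.0637 without day 1 replicate 2, 0.112 without day 1 replicate 3, 0.128 without day 7 replicate 1, 0.0530 without day 7 replicate 2 and 0.0994 without day 7 replicate 3. With 16 added before the logarithm it was 0.0763, and without both arrays numbered 2 it was 0.0651. The tryptases are related in sequence, and whether either probe set also binds the other transcript was not tested.

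Carboxypeptidase A3 trims peptides inside the same granules. Cpa3 read 173.8, 268.3 and 276.6 on day 1 and 321.6, 168.0 and 272.3 on day 7. The ages overlapped throughout, with the highest and the lowest array both from day 7. The log2 change was 0.06 (SE 0.27; 95% interval -0.56 to 0.68; limma adjusted p = 0.916), and its sign turned in 3 of the 6 fits without 1 array.

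Cma1 encodes the mast cell chymase, which cleaves matrix proteins and angiotensin. It read 262.0, 372.2 and 365.1 on day 1 and 438.9, 263.7 and 380.4 on day 7. As for Cpa3, day 7 replicate 1 was the highest array, and day 1 replicate 1 and day 7 replicate 2 were the lowest. The log2 change was 0.10 (SE 0.22; 95% interval -0.40 to 0.60; adjusted p = 0.821), and its sign turned in 2 of the 6 fits without 1 array. The intervals allow a change of either gene in either direction.

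Cpa3 and Cma1 varied together from array to array. Their log2 values had a Pearson r of 0.99 over the 6 arrays (exact permutation p = 0.0125, adjusted p = 0.075 over the 6 pairs of the 4 genes not picked for a fall) and a Spearman rho of 0.77 (exact permutation p = 0.103, adjusted p = 0.594). The r was 0.95 without day 1 replicate 1 and day 7 replicate 2, the arrays farthest from the median, and 0.998 with each age's mean subtracted. Each age alone has 3 arrays, too few for a value of its own. The other 5 pairs had r between -0.17 and 0.71, with adjusted exact permutation p-values from 0.417 to 0.890.

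Searched over the 7107 other genes above the median level, the gene most like Cma1 over the 6 arrays was Cpa3, with or without the age means subtracted. Next as measured came the scaffold protein Caskin2 (r = 0.98), the ribosomal protein Rps23 (0.96), Klhl12 (0.96) and the RNA-binding protein Ptbp3 (0.95). Mcpt1l1, a relative of the rat chymase Mcpt1, ranked 19th (r = 0.91). Tpsb2 (r = 0.07) and Tpsab1 (-0.02) ranked 2462nd and 3012th. With the age means subtracted the next genes were Gsta1, Zfp207, Nectin1 and Rps23 (r = 0.99 each), and Mcpt1l1 ranked 92nd (r = 0.91). On that scale Tpsb2 (r = 0.68) and Tpsab1 (0.31) ranked 508th and 1669th. The same search for S100a9 gave Snx1 (0.997), Imp4 (0.99), Ldha (0.99), Sbds (0.99) and Dnaja1 (0.99). S100a9 was picked for its fall, and each of these genes also lay lower on all day 7 arrays. With age means subtracted the search gave Snx1, Tysnd1, E2f2, Zng1a and Zfp687 (0.98 to 0.99). S100a8 lay below the median level, so it was not among the genes searched. With 6 arrays and 7107 genes searched such r values are a description.

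The promoters of S100a9, Tpsb2, Cpa3 and Cma1 are shown to set the pair that varied together, Cpa3 and Cma1, beside the 2 genes picked for a fall. Sequences are from RefSeq on GRCr8, read 5′ to 3′ up to the base before the annotated gene, and 5 of the 6 genes were in the promoter table. For Cpa3 the 16 bases next to the table's start lie inside the annotated gene and are left out. Capitals mark the motifs searched on both strands in the 250 bases before the start: the C/EBP type TTGCNNAA, the ETS type AGGAAG, the GATA type AGATAA and the AP-1 type GTGACTCA.
S100a9, chr2:178490623-178490872, minus strand: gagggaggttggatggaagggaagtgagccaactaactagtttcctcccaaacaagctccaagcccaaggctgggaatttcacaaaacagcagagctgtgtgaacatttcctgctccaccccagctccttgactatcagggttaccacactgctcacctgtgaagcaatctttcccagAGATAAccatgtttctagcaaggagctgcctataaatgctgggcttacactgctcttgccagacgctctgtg
Tpsb2, chr10:14886060-14886309, plus strand: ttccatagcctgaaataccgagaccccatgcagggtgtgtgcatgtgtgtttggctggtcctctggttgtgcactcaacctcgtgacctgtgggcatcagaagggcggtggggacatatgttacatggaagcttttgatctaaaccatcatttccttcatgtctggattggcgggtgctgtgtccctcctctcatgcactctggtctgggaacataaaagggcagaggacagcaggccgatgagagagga
Cpa3, chr2:104673254-104673487, minus strand: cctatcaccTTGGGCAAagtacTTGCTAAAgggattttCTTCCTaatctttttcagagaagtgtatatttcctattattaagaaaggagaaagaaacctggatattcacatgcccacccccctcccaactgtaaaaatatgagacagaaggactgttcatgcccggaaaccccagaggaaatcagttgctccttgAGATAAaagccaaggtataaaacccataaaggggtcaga
Cma1, chr15:33390134-33390383, minus strand: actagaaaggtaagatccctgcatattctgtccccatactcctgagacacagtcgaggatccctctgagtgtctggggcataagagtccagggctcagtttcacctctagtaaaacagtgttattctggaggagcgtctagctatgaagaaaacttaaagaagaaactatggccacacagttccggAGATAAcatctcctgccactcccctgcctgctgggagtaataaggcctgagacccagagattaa

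The GATA type letters occurred once each in the windows of Cpa3, Cma1, S100a9 and Fcer1a, and not in that of Tpsb2. They began 55, 64, 72 and 93 bases before the table's start, which for Cpa3 lies 16 bases inside the annotated gene. They occur in 10.3% of all 33469 promoters of the table. Factors of the GATA family act in mast cells and red cell precursors. The C/EBP type letters, which granulocyte factors read, occurred 2 times in the window of Cpa3 and 1 time in that of Fcer1a, against 9.22% of all promoters. The ETS type letters occurred in the window of Cpa3 alone of the 5 (29.5% of all promoters), and the AP-1 type letters in none of the 5 (1.23% of all). The matches in the 5 windows did not overlap. A match here is a run of letters and not a measured binding site.

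The chymase-related Mcpt1l1 read 188.6, 210.9 and 260.9 on day 1 and 285.7, 178.2 and 242.0 on day 7, with overlapping ages (log2 change 0.08, SE 0.20; adjusted p = 0.842). It has near-identical relatives in the rat genome, so which copy the probe set reads is uncertain. Within each array the tryptase was set against the other proteases, a comparison chosen after the values were seen and given as a description. Log2 Tpsab1 minus log2 Cpa3 was -0.60, -0.19 and -0.51 on day 1 and -2.18, -1.12 and -2.49 on day 7, a shift of -1.50. The shift was -1.54 against Cma1 and -1.52 against Mcpt1l1. Against the chymase Mcpt1 it was -0.67, and the values overlapped between the ages, at 3.02, 3.76 and 2.89 on day 1 and 2.88, 2.93 and 1.85 on day 7. Mcpt1 itself lay under 9.51 on day 7 replicates 1 and 2 (8.67 and 9.15). Log2 Cma1 minus log2 Cpa3 stayed between 0.40 and 0.65 on the 6 arrays (shift 0.04).

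**Figure D3:**
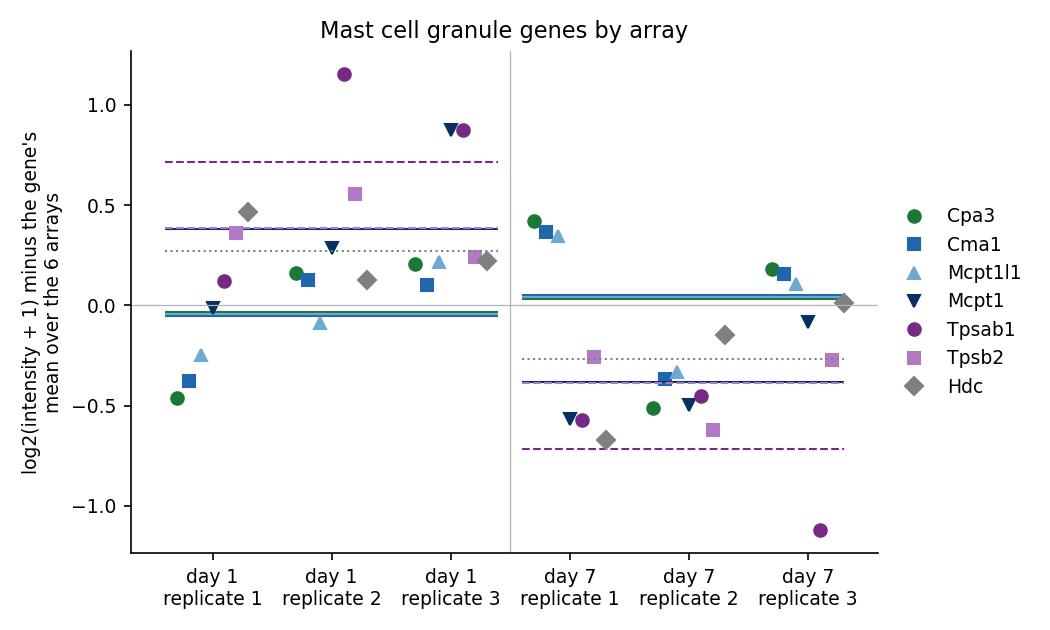
Log2(intensity + 1) of 7 mast cell granule genes on each array, minus the gene's mean over the 6 arrays. Points are arrays and horizontal lines are the means of each age, solid green for the carboxypeptidase Cpa3, solid blue for the chymases Cma1, Mcpt1l1 and Mcpt1, dashed purple for the tryptases Tpsab1 and Tpsb2 and dotted grey for Hdc. Points are shifted sideways to be seen. The day 7 means of Tpsab1, Tpsb2, Mcpt1 and Hdc lay below their day 1 means, and those of Cpa3, Cma1 and Mcpt1l1 lay near 0 at both ages. Among the 7, Tpsab1 was the only one called, and Tpsb2, picked for its fall, was not tested.

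The list of mast cell proteases and granules leaves out the 6 chosen genes, so Tpsb2, Cpa3 and Cma1 are not counted in it. Of its 16 measured genes, Tpsab1 was the only call, lower on day 7 (limma; 0 higher and 3 lower at an unadjusted p under 0.05). The median log2 change was 0.01, and the summed intensity was 969.2 to 1296 on day 1 and 939.2 to 1088 on day 7. Hdc, which makes histamine, read 43.6, 34.3 and 36.6 on day 1 and 19.3, 28.2 and 31.6 on day 7, a log2 change of -0.54 (SE 0.19; limma adjusted p = 0.149). The chymase Mcpt1 had a log2 change of -0.77 (SE 0.23; 0.112), from a mean of 18.3 ± 6.24 to 10.1 ± 2.09 (SD, n = 3 each). On day 7 replicates 1 and 2 Mcpt1 lay under 9.51. For Hdc and Mcpt1 all day 7 arrays lay below all day 1 arrays, as for 19.1% of all genes. Srgn, the proteoglycan core on which the proteases are packed, had a change of -0.03 (0.923), Ndst2, which sulfates its heparin chains, one of 0.04 (0.909), Ctsc, which activates granule proteases, one of 0.18 (0.494), and the protease inhibitor Serpinb1a one of -0.33 (0.398). Near the negative control were 5: Mcpt3, Mcpt4, Mcpt8, Mcpt9 and Gzmb.

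Of the mast cell receptors, Fcer1a, Ms4a2 and Kit were near the negative control. Fcer1a, the IgE-binding chain, read 5.40, 4.70 and 6.60 on day 1 and 5.09, 5.42 and 5.09 on day 7 (replicates 1, 2 and 3), all near the negative control (log2 change -0.07, SE 0.13; limma adjusted p = 0.779). At this level a change could not be measured. Ms4a2, the beta chain of the same receptor, read between 5.45 and 8.997, and Kit, the receptor for the mast cell growth factor, between 4.25 and 7.28. Fcer1g, the shared signalling chain that macrophages also carry, read 264.4, 383.7 and 356.9 on day 1 and 228.9, 287.2 and 263.4 on day 7, with overlapping ages (log2 change -0.35, SE 0.16; adjusted p = 0.258).

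The 18 measured genes of mast cell surface, signalling and lineage had a median log2 change of -0.01, and 0 were called higher and 0 lower (limma; 1 higher and 0 lower at an unadjusted p under 0.05). Their summed intensity was 707.4 to 853.3 on day 1 and 700.9 to 746.1 on day 7, and Kit, Ms4a2 and Cd200r1 were near the negative control. The ectoenzyme Enpp3 had a change of -0.05 (adjusted p = 0.817), the leukotriene C4 synthase Ltc4s one of 0.24 (0.322), the transcription factor Mitf one of 0.20 (0.541), the sialic acid receptor Cd33 one of 0.12 (0.717) and the kinase Lyn one of 0.02 (0.963). Over both mast cell lists, which leave out the 6 chosen genes and so the untested Tpsb2, 1 of 34 genes was lower and 0 higher. The share lower was 2.94%, against 3.15% of all genes. Basophil and eosinophil genes were at most 9.69 on any array, with 0 of 6 called (limma; 1 higher and 0 lower at an unadjusted p under 0.05; median log2 change 0.20). Of the 6, 5 were near the negative control, and the summed intensity was 33.7 to 36.1 on day 1 and 35.5 to 46.5 on day 7.

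**Figure D4:**
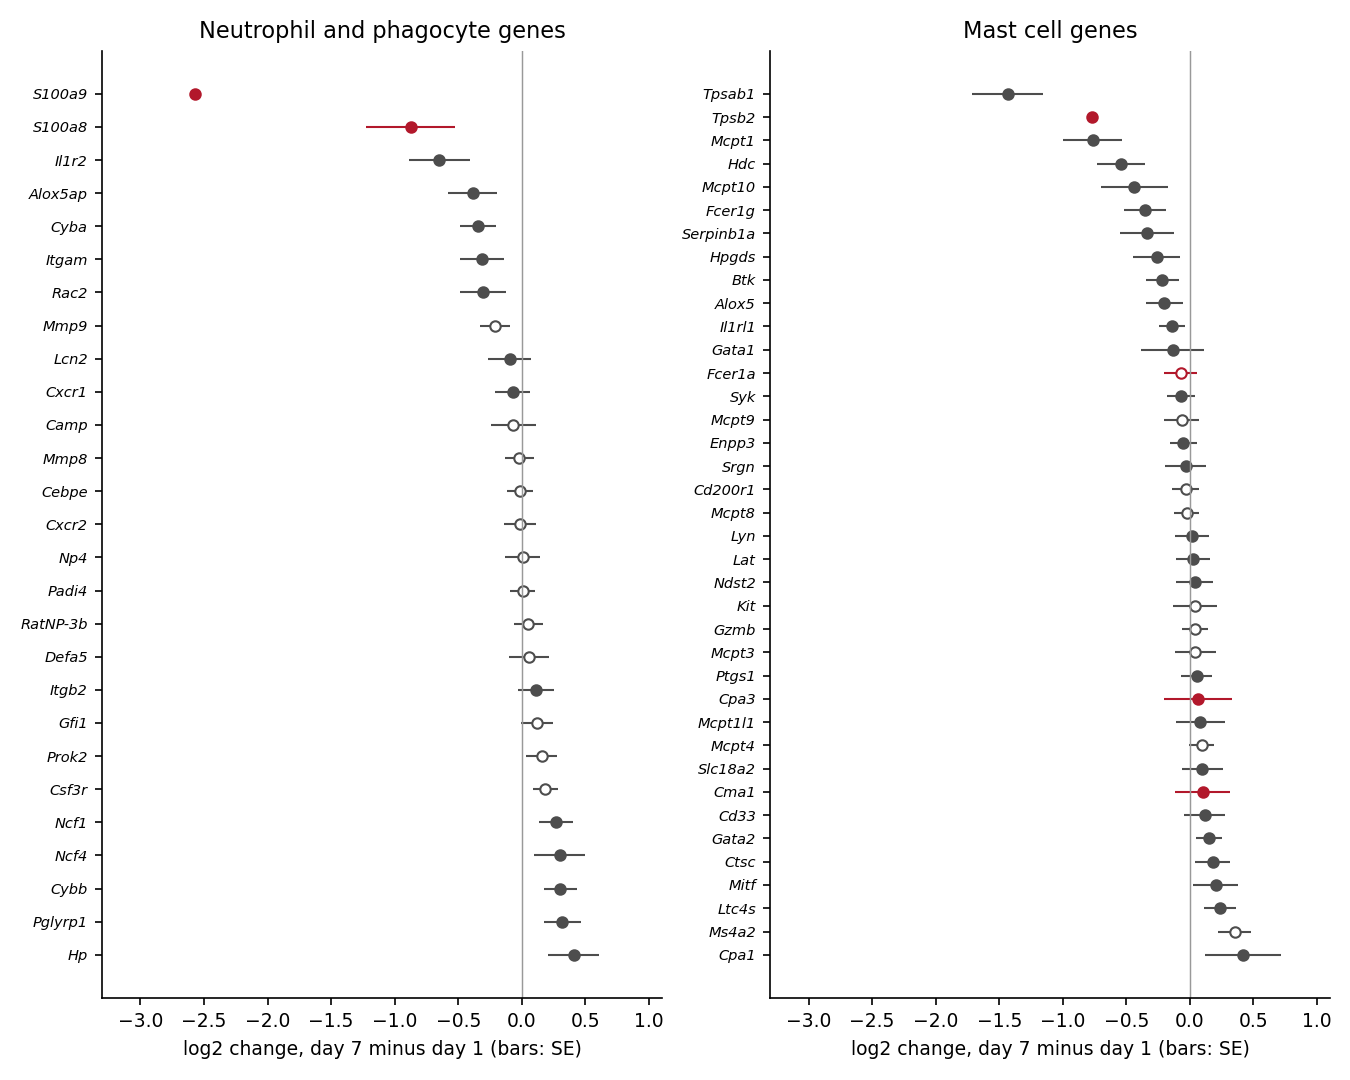
Log2 change, day 7 minus day 1, of the 25 measured neutrophil and phagocyte genes (left) and 34 measured mast cell genes (right) of the lists. The 6 chosen genes are added to these in red. Bars are the moderated SE (none for S100a9 and Tpsb2), and open circles mark genes near the negative control on all arrays. Most genes lay near 0, S100a9 and Tpsab1 lay furthest to the left of their panels, and Cpa3 and Cma1 lay at 0.06 and 0.10.

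Factors that recruit or sustain these cells were also measured. The median log2 change of 18 was 0.13. Of them Cxcl12, a chemokine of stromal cells, was called higher and none lower (limma; 5 higher and 0 lower at an unadjusted p under 0.05). Over all genes 1.93% were called higher, and the share at an unadjusted p under 0.05 was not counted. Cxcl12 read 382.6, 431.3 and 315.5 on day 1 and 595.3, 653.7 and 672.2 on day 7. All its day 7 arrays lay above all its day 1 arrays (log2 change 0.77, SE 0.14; limma adjusted p = 0.0313). The share of all genes with that separation was not counted. The call was lost in 5 of the 6 fits without 1 array, with an adjusted p of 0.106 without day 1 replicate 1, 0.0736 without day 1 replicate 3, 0.110 without day 7 replicate 1, 0.0602 without day 7 replicate 2 and 0.0850 without day 7 replicate 3.

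Kitlg, the mast cell growth factor that binds Kit, read 210.5, 202.9 and 165.3 on day 1 and 282.9, 212.2 and 271.7 on day 7. Its highest day 1 and lowest day 7 arrays were close, and the log2 change was 0.40 (SE 0.15; limma adjusted p = 0.178). Il33, an alarm cytokine that acts on mast cells, had a log2 change of 0.68 (SE 0.17; limma adjusted p = 0.0714, with 0.0353 to 0.210 over its alternatives, of which array weights alone passed). The macrophage growth factor Csf1 had a change of -0.33 (0.259) and the chemokines Ccl2 and Ccl3 ones of -0.19 (0.779) and 0.32 (0.212). The neutrophil growth factor Csf3 and the neutrophil chemokines Cxcl2 and Cxcl6 stayed near the negative control.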

How the data were processed

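Rat Achilles tendon RNA was amplified and biotin-labelled for the array, per the labels' protocols. The deposited table holds 1 linear intensity per probe set and array. The submitters' processing notes name MAS5 and RMA, and which of them made the intensity values is not given in the sources used here. Of 31099 probe sets, 57 controls were left out. A platform annotation gave 20826 of the other 31042 a single gene (436 had several and 9780 none), and the probe set with the highest mean over the arrays stood for each of 14217 genes. Gene identifiers of 20758 were found in RefSeq's GRCr8 table. Values were taken as log2(intensity + 1), without further normalization, because the table was already processed. Day 7 was compared with day 1 by limma 3.58.1 (R 4.3.3; lmFit and eBayes), two-sided, and p-values were adjusted by Benjamini-Hochberg over all 31042 probe sets, with a threshold of 0.05. Fold changes are on the log2(intensity + 1) scale, which understates those of dim genes.

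The members and the 17 gene lists (235 genes, 186 of them measured) were chosen with earlier results of these data known. The lists leave out the 6 members. Genes named from a list were those called and its brightest (up to 6 in the lists of neutrophil, phagocyte and mast cell genes and of recruiting factors, up to 3 in others). Not all of these are named. Likeness was the Pearson r of log2 values over the 6 arrays, among genes above the median one, with the 5 highest named for S100a9 and for Cma1, the brightest mast cell gene of the 6. Hdc, Mcpt1, Ms4a2, Kit, Csf3, Cxcl2, Cxcl6, Cd52, Klf1, Cd163, C1qb, C1qc and the genes given as near the negative control were named after their values were seen. The fit was repeated after quantile normalization, after centring each array on its median, with a constant of 16, on brighter probe sets alone (above the median one), with probe sets averaged per gene, with array weights, with a trended and robust variance, with replicate numbers as a block, without each array in turn and without both arrays numbered 2. The code was tested on simulated data. With 3 arrays an age, precision is limited throughout.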

Additional observations from a re-analysis of the deposited data

How the results depend on the processing

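Over all genes, 274 were higher and 448 lower on day 7. The counts without 1 array ranged from 4 to 271 higher and from 0 to 382 lower. Without day 7 replicate 1, where 0 were lower, 1869 genes were lower at an unadjusted p under 0.05 (limma). Array weights gave 538 and 897, and a constant of 16 gave 182 higher. Quantile normalization gave 352 and 319, so that 52.5% of the calls were higher against 38.0% as deposited. The replicate block gave 25 and 8. Same-numbered arrays did not deviate together (r of their deviations from the age means 0.05, -0.25 and -0.14 for numbers 1, 2 and 3), so the numbers were not taken as pairs.

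The count of listed mast cell genes called lower, 1, was 0 with a constant of 16, with the replicate block and without both arrays numbered 2, and 0 to 1 without 1 array. That gene, Tpsab1, had adjusted p-values from 0.0259 to 0.128 over its 15 alternatives (limma), Cxcl12 from 0.0183 to 0.110, S100a6 from 0.0195 to 0.128, S100b from 0.0182 to 0.155 and Adgre1 from 0.00959 to 0.0932. The count of listed neutrophil genes called lower, 0, was 1 (Il1r2) without both arrays numbered 2. S100a9 kept its direction, with -1.72 at a constant of 16 and -3.01 to -1.99 without 1 array. Tpsb2 kept its direction, with -0.57 without both arrays numbered 2 and -0.84 to -0.65 without 1 array. S100a8 stayed negative and uncalled (-1.23 to -0.43), and S100a8, Fcer1a and Il1r2 gave no value where only the brighter probe sets were used.

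Signs turned only in values that were not called. Cpa3 was -0.15 without day 1 replicate 1, -0.13 without day 7 replicate 1 and -0.01 without day 7 replicate 3, with a range of -0.15 to 0.33 without 1 array (0.43 without both arrays numbered 2). Cma1 was -0.062 without day 1 replicate 1 and -0.05 without day 7 replicate 1, with a range of -0.062 to 0.31 without 1 array (0.40 without both arrays numbered 2). Mcpt1l1 was -0.02 and -0.070 in the same 2 fits, with a range of -0.070 to 0.27 without 1 array. Fcer1a was 0.037 without day 1 replicate 3, with a range of -0.17 to 0.037 without 1 array (-0.20 without both arrays numbered 2). The cause of these changes was not tested.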

Other observations

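Platelet transcripts set a single array apart. Pf4, a chemokine stored in platelet granules, read 924.7, 925.5 and 886.3 on day 1, and 247.8, 944.6 and 959.2 on day 7 (replicates 1, 2 and 3). Day 7 replicate 1, the low array, was also the lowest of the 6 in Hbb (6706), Alas2 (190.9), S100a8 (13.2) and S100a9 (7.48), and the highest in Cpa3 (321.6) and Cma1 (438.9). The median log2 change of 6 measured platelet and megakaryocyte genes was -0.31, and none was called (limma; 0 higher and 1 lower at an unadjusted p under 0.05). Of 8 measured lymphocyte genes 7 were near the negative control, and none was called (2 higher and 0 lower at an unadjusted p under 0.05; median log2 change 0.05). The leukocyte surface gene Cd52 read 41.8, 47.7 and 142.0 on day 1 and 18.1, 125.1 and 91.7 on day 7. Of 9 genes common to all leukocytes it alone kept the array order of S100a9 within both ages.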
